A study of Mus musculus with 24 samples.

Results

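The 9 genes described here, Mbp, Mobp, Mog, Mag, Cnp, Cldn11, Mal, Opalin and Ermn, encode proteins of central myelin and of the oligodendrocytes that make it. They were chosen by symbol, each matched 1 Ensembl identifier, and they are 9 of the 55414 genes in the series table. Their RNA was counted in 24 bulk libraries, each made from total RNA of about 500 basal forebrain cholinergic neurons of 1 mouse, cut by laser from the medial septum and the vertical diagonal band after staining for choline acetyltransferase. Cholinergic neurons are not known to build myelin, so these counts are described as RNA of neighbouring cells that came along with the neurons. The cell of origin itself was not measured.

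All mice were males of about 6 months whose dams were Ts65Dn. Ts65Dn mice, a model of Down syndrome, carry a small extra chromosome, and their 2N counterparts are disomic. The tissue came from 8 supplemented Ts65Dn mice (dams on chow with 5.0 g/kg choline chloride), 6 control-diet Ts65Dn mice (1.1 g/kg), 4 supplemented 2N mice and 6 control-diet 2N mice. The dam's diet was given until weaning, and all 4 groups then ate the control diet. The sample labels give these group sizes, whereas the design text gives 6 animals in every group, and the series table has the columns of supplemented Ts65Dn 2 and 5 standing among those of supplemented 2N. The labels were followed, and results that rest on these 2 libraries are also given without them.

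Myelin is a spiral of oligodendrocyte membrane wrapped around an axon, held together on its inner faces by basic proteins and kept at a fixed distance from the axon by adhesion proteins. In oligodendrocytes some of its mRNAs, Mbp above all, are carried along the processes and translated beside the growing sheath. The medial septum and diagonal band are crossed by myelinated fibres, so cell bodies cut from a section lie close to oligodendrocytes and their processes.

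Oligodendrocyte genes are known to be switched on by SOX10 and by MYRF. To show what the start regions of these genes look like, 3 are printed here because their genes carry the comparisons below (Mag and Mobp) or share both motifs (Cnp). Each is the 250 bases before a RefSeq transcript start on GRCm38.p6, 5′ to 3′ on the strand of the gene, with motif matches in capitals. For Mag, on the minus strand at chr7:30914864-30915113, the first of 3 listed starts is shown; Mobp is on the plus strand at chr9:120149492-120149741 and Cnp on the plus strand at chr11:100574689-100574938.
Mag: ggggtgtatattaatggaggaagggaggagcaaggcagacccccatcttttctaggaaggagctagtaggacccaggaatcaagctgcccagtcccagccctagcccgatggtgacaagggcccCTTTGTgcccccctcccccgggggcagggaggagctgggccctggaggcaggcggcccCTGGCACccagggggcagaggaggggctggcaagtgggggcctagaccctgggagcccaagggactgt
Mobp: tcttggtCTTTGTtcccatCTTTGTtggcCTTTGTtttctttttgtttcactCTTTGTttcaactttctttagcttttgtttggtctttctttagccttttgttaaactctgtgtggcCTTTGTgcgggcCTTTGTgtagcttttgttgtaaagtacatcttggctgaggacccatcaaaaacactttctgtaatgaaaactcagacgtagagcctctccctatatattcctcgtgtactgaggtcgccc
Cnp: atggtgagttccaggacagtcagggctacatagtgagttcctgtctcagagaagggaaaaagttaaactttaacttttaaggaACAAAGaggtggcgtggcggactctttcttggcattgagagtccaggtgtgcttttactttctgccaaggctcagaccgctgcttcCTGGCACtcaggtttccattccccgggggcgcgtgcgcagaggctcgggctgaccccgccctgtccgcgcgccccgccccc
The motifs searched, on both strands, were ACAAAG, the core of SOX sites, and CTGGCAC, a form of the MYRF site. They share no overlap in the printed sequences. The Mobp region held 6 matches to the SOX core, all written CTTTGT on the strand shown, the first 243 and the last 120 bases before the start. Of 32817 RefSeq start regions of this length, 7 (0.0213%) held 4 or more such matches and 5404 (16.5%) held at least 1. Mag and Cnp each held 1 SOX match and 1 MYRF match. The MYRF match lay 68 bases before the start in Mag and 81 bases before it in Cnp, and 4.19% of all regions held its letters. Of the other two starts listed for Mag, one has the same 2 matches in its region and the other has neither. Over the 10 regions listed for 8 members, 5 held the SOX core and 3 the MYRF letters, with Mag counted at each of its starts. These matches describe letters only, and where none was found nothing follows about the factor.

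Facts of all libraries come first because they touch every value below. Total counts ran from 4688258 to 13443438 per library. Chat, the gene of the stained enzyme, was under 1 CPM (a gene's counts scaled to one fixed library total, after TMM factors between libraries) in 6 libraries: supplemented Ts65Dn 7, control-diet Ts65Dn 3, 5 and 6, supplemented 2N 3 and control-diet 2N 5. It was at 0 in control-diet Ts65Dn 3, which also had the lowest total of all libraries. Mitochondrial ribosomal RNA took 17.8% to 43.3% of counts in supplemented Ts65Dn libraries, against 13.5% to 29.3% in the other 16. The animal numbers begin with 14, 15, 16 or 17, a prefix whose meaning is not stated and which is uneven between diets: 17 marks 1 of 12 supplemented and 8 of 12 control-diet libraries, and 14 marks supplemented libraries alone. In the diet comparisons and the interaction, diet and prefix can therefore be told apart only in part. In bulk samples such as these, fewer captured oligodendrocyte parts and less RNA per cell cannot be told apart.

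The 9 genes together took 0.253% ± 0.0369 of counts in supplemented Ts65Dn libraries, 0.203% ± 0.0964 in control-diet Ts65Dn, 0.247% ± 0.0183 in supplemented 2N and 0.277% ± 0.0269 in control-diet 2N (SD, n = 8, 6, 4 and 6). Mbp, which encodes the basic protein that joins the inner membrane faces, and Mobp, a second small basic protein of compact myelin, made up 82.1% to 90.4% of member counts in every library. By TPM, which corrects for transcript length, Mbp ranked between place 40 and place 328 of all genes, with a median level of 1070 TPM over 24 libraries, and it lay above Chat in all 24. Mobp followed with a median of 336 TPM, below Mbp in all 24 libraries. Mag (61.9 TPM), the adhesion protein that faces the axon, and Cnp (58.0 TPM), a phosphodiesterase of the cytoplasmic channels of the sheath, changed places between libraries, with Mag the higher in 14 of 24. Mal, a membrane raft proteolipid, had 28.9 TPM and Ermn, a cytoskeletal protein of late oligodendrocytes, 13.5 TPM. Mog, on the outermost lamella, had 8.84 TPM and Cldn11, the tight junction protein of the myelin spiral, 7.77 TPM, and neither was steadily the higher. Opalin, a late oligodendrocyte membrane protein, was lowest at 1.62 TPM.

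**Figure D1:**
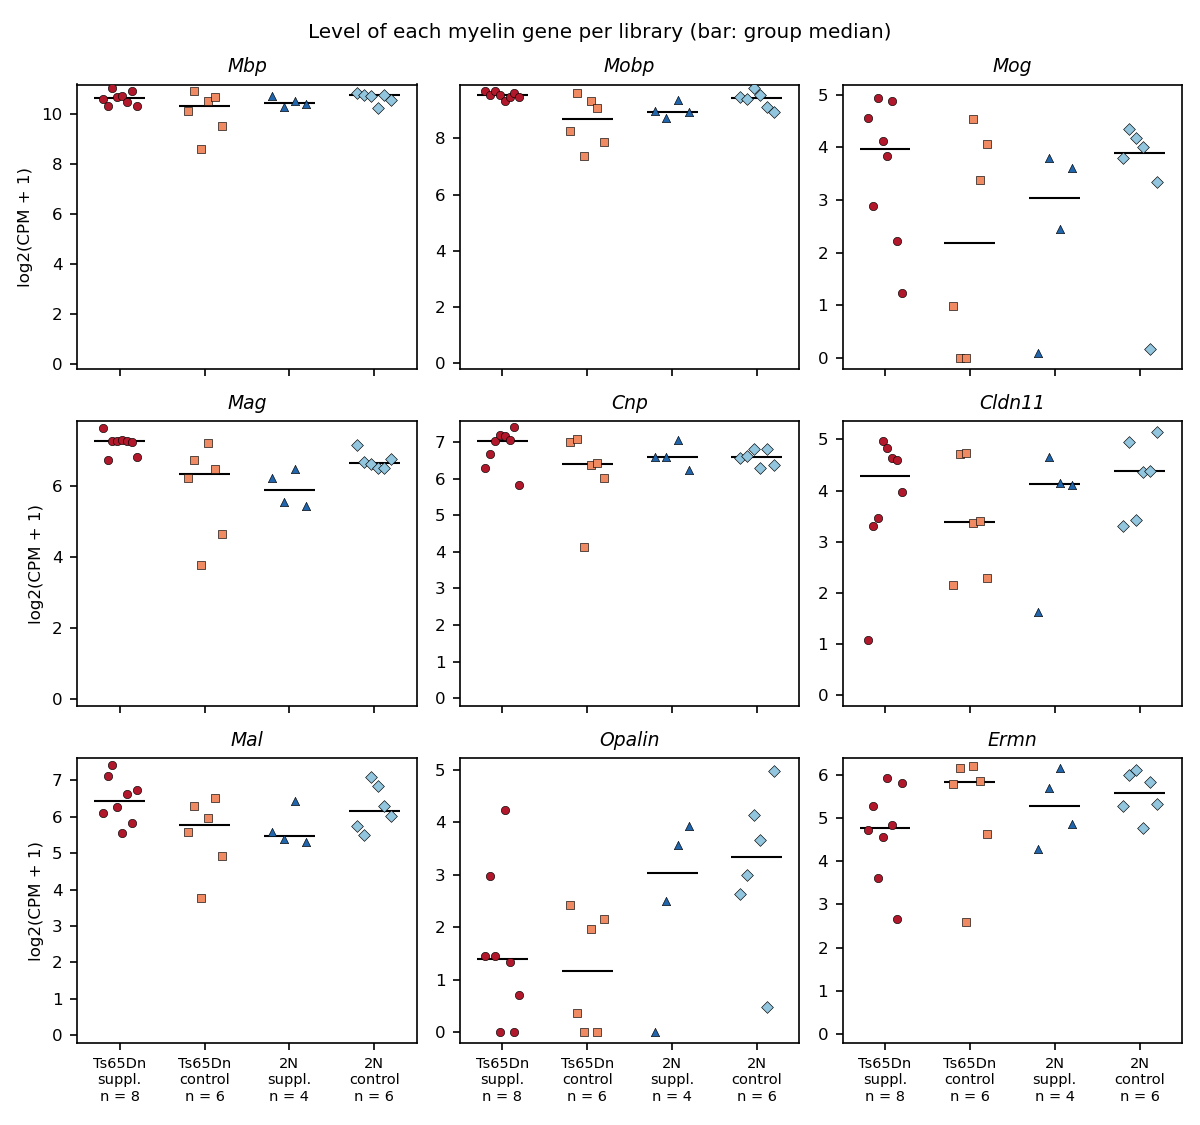
Level of each of the 9 genes in each library, as log2(CPM + 1), for supplemented Ts65Dn, control-diet Ts65Dn, supplemented 2N and control-diet 2N (1 point per library, bars are group medians). Mbp and Mobp lie highest, Mog and Opalin scatter down to 0, and the 8 supplemented Ts65Dn points of Mag all lie above the 4 of supplemented 2N.

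The members of compact myelin had levels that overlapped between all groups. Mbp had a lowest, median and highest level of 1275, 1598 and 2147 CPM in supplemented Ts65Dn, 387, 1302 and 1968 CPM in control-diet Ts65Dn, and 1208, 1730 and 1836 CPM in control-diet 2N. The 4 supplemented 2N libraries had 1722, 1249, 1482 and 1342 CPM. The low values of control-diet Ts65Dn were those of libraries 3 and 6, at 387 and 733 CPM, and the other 4 of that group lay between 1117 and 1968 CPM. Mobp had 649, 750 and 834 CPM as its lowest, median and highest level in supplemented Ts65Dn and 166, 426 and 786 CPM in control-diet Ts65Dn. Its level was 506, 428, 669 and 489 CPM in supplemented 2N, and its lowest, median and highest level was 492, 690 and 892 CPM in control-diet 2N. In CPM the supplemented Ts65Dn libraries were the most even of the 4 groups for Mobp (SD 61.6 CPM, n = 8). In that unit 7 of the 8 lay above every supplemented 2N library, and the share of all genes with such a pattern was not counted. In TPM supplemented 2N was the most even group for Mobp (SD 66.7 TPM, n = 4), against 87.6 TPM in supplemented Ts65Dn. Its median was also the higher of the 2, at 349 against 309 TPM.

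Mag had a lowest, median and highest level of 106, 153 and 196 CPM in supplemented Ts65Dn, 12.5, 80.9 and 147 CPM in control-diet Ts65Dn, and 89.1, 99.2 and 140.4 CPM in control-diet 2N. The 4 supplemented 2N libraries had 73.4, 46.0, 87.8 and 42.5 CPM, which is below every library of both supplemented Ts65Dn and control-diet 2N. Control-diet Ts65Dn 3 and 6 were again lowest, at 12.5 and 24.0 CPM. Cnp had 56.0, 130 and 167 CPM in supplemented Ts65Dn, 16.4, 82.8 and 135 CPM in control-diet Ts65Dn, 73.7 to 131 CPM in supplemented 2N, and 77.1, 95.6 and 112 CPM in control-diet 2N. The Cnp ranges of the 4 groups overlapped.

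The remaining 5 genes were sparser, and their scatter was wide. Mal ran from 46.2 to 169.7 CPM in supplemented Ts65Dn, 12.5 to 90.9 CPM in control-diet Ts65Dn, 38.5 to 84.6 CPM in supplemented 2N and 44.3 to 134 CPM in control-diet 2N. Ermn ran from 5.37 to 59.6 CPM in supplemented Ts65Dn, 5.07 to 72.3 CPM in control-diet Ts65Dn, 18.4 to 70.5 CPM in supplemented 2N and 26.2 to 68.0 CPM in control-diet 2N. Cldn11 ran from 1.11 to 30.2 CPM in supplemented Ts65Dn, 3.46 to 25.6 CPM in control-diet Ts65Dn, 2.08 to 24.4 CPM in supplemented 2N and 8.86 to 34.4 CPM in control-diet 2N. The ranges of these 3 genes overlapped between all groups. Mog reached 29.9 CPM in supplemented Ts65Dn, 22.2 CPM in control-diet Ts65Dn, 13.01 CPM in supplemented 2N and 19.4 CPM in control-diet 2N, and Opalin 17.8, 4.35, 14.3 and 30.3 CPM in the same groups. Mog was at 0 counts in control-diet Ts65Dn 2 and 3, and Opalin in supplemented Ts65Dn 4 and 7, control-diet Ts65Dn 3 and 5 and supplemented 2N 1. Mog had a median of 117 counts and Opalin of 30 counts over all libraries, and the standard errors of their log2 fold changes ran from 1.04 to 2.11 over the comparisons below.

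No member passed the test in any comparison. The test was edgeR's quasi-likelihood F test on all 24 libraries, with Benjamini-Hochberg adjustment over the 19967 genes tested, among them all 9 members, and a call at an adjusted p under 0.05. With other tools or settings, Mag, Mobp and Mbp were called in some comparisons, as given beside each result. The comparisons share samples: each group enters at least 2 of them, so their fold changes are not independent of each other. A p that misses the threshold does not show that the levels are equal.

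**Figure D2:**
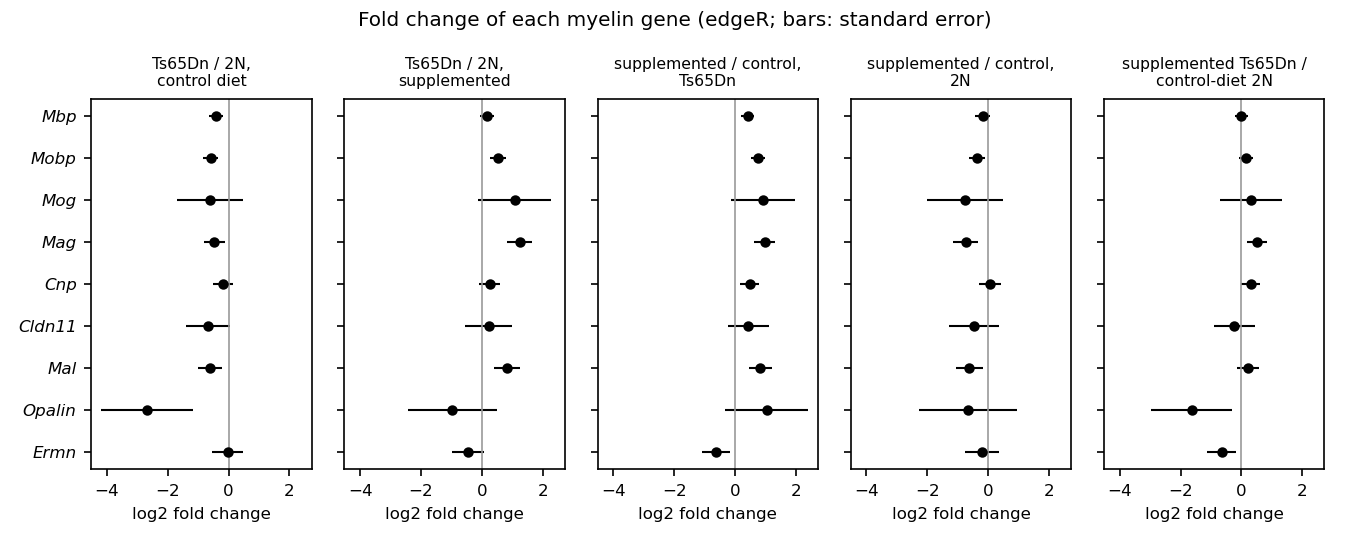
Log2 fold change of each gene in 5 comparisons, with the standard error of the edgeR fit as bars and 0 as the vertical line. All 9 points lie below 0 for Ts65Dn against 2N on the control diet, and 8 of 9 lie above 0 for supplemented against control-diet Ts65Dn.

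On the control diet, the question was how trisomy changes these neurons and their surroundings. All 9 members had a lower fitted level in control-diet Ts65Dn than in control-diet 2N, and none was called, against 67 of all genes tested (0.336%). At an unadjusted p under 0.05 there was 1 member, Mobp, while 5.55% of all genes were lower and 5.36% higher at that level. The median log2 fold change of the members was −0.59, against −0.02 over all genes tested. Mobp had a log2 fold change of −0.59 ± 0.24 (SE, adjusted p = 0.301), Mbp of −0.42 ± 0.22 (adjusted p = 0.511) and Mag of −0.47 ± 0.35 (adjusted p = 0.755). Cldn11, Mal and Mog lay between −0.60 and −0.67, Opalin at −2.68 ± 1.5, Cnp at −0.17 ± 0.33 and Ermn at −0.03 ± 0.51. DESeq2 and limma-voom called no member here either. Without control-diet Ts65Dn 3, the library without Chat counts, and supplemented Ts65Dn 7, the median was −0.34, and the values of Cnp (0.04) and Ermn (0.20) were above 0. Mag was at −0.26 without control-diet Ts65Dn 3 alone. Without the 6 libraries with Chat under 1 CPM the median was −0.30 and Mag was at −0.0035.

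In supplemented Ts65Dn against supplemented 2N, 7 of 9 members had a higher fitted level, none was called, against 36 of all genes (0.18%), and 1, Mag, had an unadjusted p under 0.05, as did 6.99% of all genes in that direction and 2.49% in the other. Mag had 147.7 ± 28.3 CPM in supplemented Ts65Dn and 62.4 ± 21.8 CPM in supplemented 2N (SD, n = 8 and 4), a log2 fold change of 1.24 ± 0.40 (95% interval 0.47 to 2.02, adjusted p = 0.279). In CPM all 8 supplemented Ts65Dn libraries lay above all 4 of supplemented 2N for this gene, a separation that 0.195% of all genes tested showed. In TPM the ranges overlapped, at 42.2 to 142.5 in supplemented Ts65Dn and 40.0 to 54.3 in supplemented 2N. Over the alternatives to the fit, the log2 fold change of Mag ran from 0.53 to 1.48. Mag was called by DESeq2 (adjusted p = 0.0397), in a fit of these 2 groups alone (0.0481) and without the libraries with Chat under 1 CPM (0.0288), and not by 12 other alternatives, whose adjusted p together with these ran from 0.0288 to 0.746. Without supplemented Ts65Dn 2 and 5 its log2 fold change was 1.29 (adjusted p = 0.197), and among libraries of ID prefix 16 it was 1.28. Mal (0.84 ± 0.43), Mobp (0.52 ± 0.26) and Mog (1.08 ± 1.21) followed, Mbp was at 0.17 ± 0.24, and Opalin and Ermn were at −0.97 and −0.45. The median over the members was 0.26, against 0.09 over all genes.

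The comparison of supplemented with control-diet Ts65Dn asks what the maternal diet left behind in trisomic offspring. Of the 9 members, 8 had a higher fitted level in supplemented Ts65Dn, none was called, against 26 of all genes (0.13%), and 3 had an unadjusted p under 0.05, as did 5.38% of all genes in that direction and 4.24% in the other. Mobp had 752 ± 61.6 CPM in supplemented and 448 ± 249 CPM in control-diet Ts65Dn (SD, n = 8 and 6), a log2 fold change of 0.75 ± 0.23 (adjusted p = 0.216), and all 8 supplemented libraries lay above the control-diet mean. It was called by DESeq2 (adjusted p = 0.0459) and with no filter on low counts (0.00184), and not in a fit of the 2 groups alone (0.646). Without the libraries with Chat under 1 CPM its log2 fold change was 0.42 (adjusted p = 0.572). Mag had a log2 fold change of 0.97 ± 0.34 (adjusted p = 0.244) and Mal of 0.83 ± 0.37 (adjusted p = 0.41). In TPM the medians of supplemented and control-diet Ts65Dn were 309 and 298 for Mobp and 61.9 and 71.1 for Mag. Over 15 alternatives, log2(TPM + 1) among them, the log2 fold change was 0.42 to 0.95 for Mobp and 0.50 to 1.44 for Mag. Mbp was at 0.41 ± 0.21 (adjusted p = 0.526), called only with no filter on low counts (0.0275), and Ermn was the exception in sign at −0.62 ± 0.47. The median over the members was 0.75, against 0.04 over all genes; it was 0.47 without supplemented Ts65Dn 2 and 5, and 0.44 without the libraries with Chat under 1 CPM. With the ID prefix as a factor Mobp was at 0.71 and Mag at 0.77, and among the Ts65Dn libraries of prefix 16, 2 from each diet, they were at 0.51 and 0.81, none called.

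The diet in disomic offspring was compared in the 2N groups. In supplemented against control-diet 2N, 8 of 9 members were lower, none was called, against 1 of all genes (0.00501%), and none had an unadjusted p under 0.05, whereas 5.06% of all genes were lower and 1.86% higher at that level. DESeq2 and limma-voom also called none. Mag had 62.4 ± 21.8 CPM in supplemented and 104.1 ± 19.0 CPM in control-diet 2N (SD, n = 4 and 6), a log2 fold change of −0.74 ± 0.40 (adjusted p = 0.842). In CPM the 4 supplemented libraries lay below all 6 control-diet libraries for Mag, as was so for 0.741% of all genes tested. In TPM the ranges overlapped, at 40.0 to 54.3 in supplemented and 52.2 to 107.8 in control-diet 2N. The other members lay between 0.06 (Cnp) and −0.77 (Mog), with a median of −0.46, against −0.06 over all genes.

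The difference between these 2 diet effects was tested as an interaction term, which called no member and 1 of all genes (0.00501%). Its log2 value, the diet effect in Ts65Dn minus that in 2N, was 1.71 ± 0.53 for Mag (adjusted p = 0.251), 1.12 ± 0.36 for Mobp (adjusted p = 0.292) and 1.46 ± 0.58 for Mal (adjusted p = 0.448), the 3 members with an unadjusted p under 0.05, as had 5.78% of all genes in that direction and 2.65% in the other. DESeq2 gave Mag an adjusted p of 0.0605 and called no member; with no filter on low counts Mobp was called (0.00855). With the ID prefix as a factor the value was 1.92 for Mag and 1.31 for Mobp (adjusted p = 0.413 for both). The median over the members was 1.12, against 0.13 over all genes. For supplemented Ts65Dn against control-diet 2N, the median was 0.15, the members were split 5 to 4 in sign, no member was called by edgeR, against 109 of all genes (0.546%), and none had an unadjusted p under 0.05, whereas 3.95% of all genes were lower and 5.22% higher at that level. DESeq2 called none. Mbp was level there, at 0.00 ± 0.21, and Mag at 0.50 ± 0.33.

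**Figure D3:**
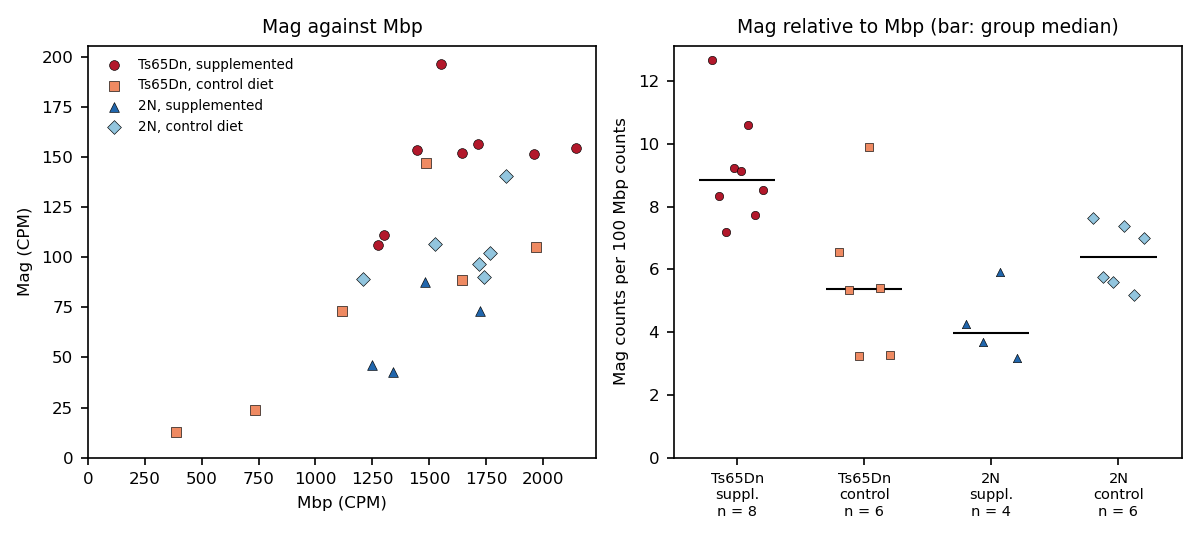
Left, Mag against Mbp in CPM, 1 point per library; right, Mag counts per 100 Mbp counts by group, with group medians as bars. At like Mbp levels the supplemented Ts65Dn points lie above those of supplemented 2N, at 7.2 to 12.7 against 3.17 to 5.92 Mag counts per 100 Mbp counts. The counts are not corrected for transcript length, and the estimated Mbp length was shorter in 6 supplemented Ts65Dn libraries.

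The ratio of Mag to Mbp within a library does not depend on how libraries are scaled. It does depend on transcript length, for which these counts were not corrected. The estimated Mbp length, given below, was 933 to 1236 bases in 6 supplemented Ts65Dn libraries and 1787 to 1948 bases in supplemented 2N. Mag counts per 100 Mbp counts ran from 7.2 to 12.7 in supplemented Ts65Dn, with a median of 8.83. They ran from 3.24 to 9.89 in control-diet Ts65Dn (median 5.37), from 3.17 to 5.92 in supplemented 2N (3.97) and from 5.17 to 7.65 in control-diet 2N (6.39). In these uncorrected counts the supplemented Ts65Dn libraries did not overlap with supplemented 2N, and without libraries 2 and 5 they spanned the same range. The lowest supplemented Ts65Dn ratio, in library 3, came with lengths of 1043 bases for Mbp and 1720 for Mag. The highest supplemented 2N ratio, in library 3, came with 1917 and 1804 bases. The separation is therefore one of counts, and no ratio corrected for length was computed. The share of all genes whose ratio to Mbp separates these groups was not counted. The ratio was set up after the Mag levels were seen and was not tested. Mobp per 100 Mbp counts gave overlapping ranges, 37.8 to 59.4 in supplemented Ts65Dn, 27.2 to 43.7 in control-diet Ts65Dn, 29.4 to 45.1 in supplemented 2N and 31.7 to 61.4 in control-diet 2N.

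Mbp gives many transcripts, among them the longer mRNAs of classic myelin basic protein and the Golli transcripts from an upstream start, which neurons also make. The files list 16 Mbp transcripts, of 354 to 4797 bases in GENCODE M21, and give for each library a mean transcript length weighted by the estimated abundance of each transcript. It was 1068, 1688, 1043, 1120, 1547, 1236, 1024 and 933 bases in supplemented Ts65Dn 1 to 8. Its lowest, median and highest value was 1405, 1697 and 1988 bases in control-diet Ts65Dn and 1548, 1737 and 1896 bases in control-diet 2N, and it lay between 1787 and 1948 bases in supplemented 2N. Thus 6 of the 8 supplemented Ts65Dn libraries had values of 933 to 1236 bases, and the other 18 libraries, among them supplemented Ts65Dn 2 and 5, had 1405 to 1988 bases.

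**Figure D4:**
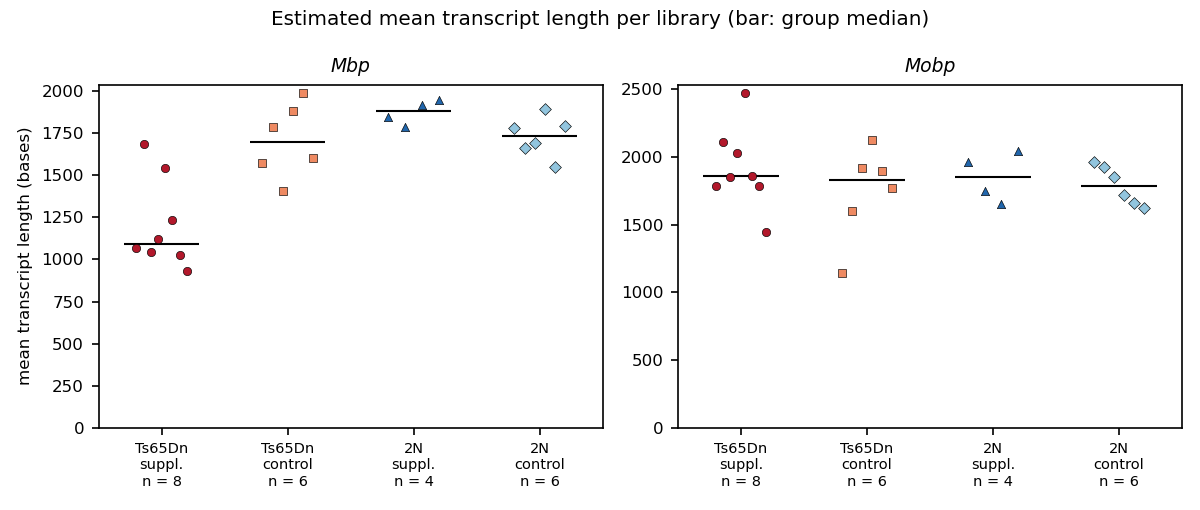
Estimated mean transcript length in bases of Mbp (left) and Mobp (right) in each library by group, with group medians as bars. For Mbp, 6 supplemented Ts65Dn libraries lie at 933 to 1236 bases, below the 18 others, whereas the Mobp ranges of the groups overlap.

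Mean transcript length was compared with limma on the log2 scale over 5223 genes with at least 2 transcripts and 10 counts in every library, a test added after these values were seen. The log2 difference for Mbp was −0.66 ± 0.13 against supplemented 2N (limma adjusted p = 0.0962, place 3 of all genes by p), −0.52 ± 0.12 against control-diet Ts65Dn (0.177) and −0.54 ± 0.12 against control-diet 2N (0.061), none of them called. In these comparisons 0%, 0% and 0.0766% of all genes were called shorter, and 0%, 0% and 0.0574% longer. Without supplemented Ts65Dn 2 and 5, or without 2 alone, Mbp was called shorter in all 3 comparisons, with adjusted p = 0.000257, 0.000672 and 0.000223 without both. The Mbp values of these 2 libraries were known when they were left out, so this is no independent support. Of the other 4 members that could be tested, Mobp, Mag, Cnp and Mal, none was called shorter or longer in any comparison. Among all 5223 genes, 9, Mbp included, were shorter and 4 were longer in those 6 libraries than in all 18 others. The 6 libraries were picked by their Mbp lengths, so the place of Mbp among the 9 was fixed in advance. The same 6 libraries were also those with the highest shares of mitochondrial ribosomal RNA in their group, 29.0% to 43.3% against 17.8% and 21.2% in libraries 2 and 5; the part of RNA quality in the Mbp lengths was not tested. A shorter estimated length raises TPM for a given count, so levels between groups are given mainly as CPM. In turn, a lower TMM factor raises CPM for a given count, so neither unit is free of such effects. The factors ran from 0.696 to 1.158 in supplemented Ts65Dn and from 1.041 to 1.174 in supplemented 2N. In these 2 groups the members took a mean of 0.253% and 0.247% of counts, and their mean summed level was 2811 and 2257 CPM. The unit changed the order of some group medians. For Mobp they were 309 TPM in supplemented Ts65Dn and 349 TPM in supplemented 2N, against 750 and 497 CPM. The median estimated length of Mobp was 1858 and 1855 bases in these groups. For Mag the group medians were 61.9 TPM in supplemented and 71.1 TPM in control-diet Ts65Dn, against 153 and 80.9 CPM. Mag stayed higher in supplemented Ts65Dn than in supplemented 2N (49.1 TPM). The cause of these changes was not tested.

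Other genes of the myelin pathway were counted from lists. Beside the members, the list of myelin structure and maintenance held 22 genes, and 18 were lower in control-diet Ts65Dn than in control-diet 2N (median log2 fold change −0.38, none called). With supplementation in Ts65Dn, 17 of the 22 were above 0 (median 0.36), led by Plekhb1 (0.97 ± 0.30, adjusted p = 0.219). For supplemented Ts65Dn against supplemented 2N, 14 of 22 were above 0 (0.12), led by Gsn (adjusted p = 0.466), and for supplemented against control-diet 2N, 13 of 22 were below 0 (−0.32), led by Septin8 (0.787). Of 13 genes of myelin lipid synthesis, 10 were lower in control-diet Ts65Dn than in control-diet 2N (−0.35), led by Ugt8a, which makes galactosylceramide (−1.63 ± 0.80, adjusted p = 0.445), and 7 were higher with supplementation in Ts65Dn (0.08). None of the 13 was called in any comparison.

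The list of proteins that splice or carry myelin mRNAs held the 1 gene of the myelin and oligodendrocyte lists that passed the test. Qk encodes quaking, an RNA-binding protein known to act on the mRNAs of Mbp and on the splicing of Mag in mice. It had a lowest, median and highest level of 160, 219 and 315.5 CPM in supplemented Ts65Dn, 111, 161 and 176 CPM in control-diet Ts65Dn and 255, 326 and 519.6 CPM in control-diet 2N, and 220.5 to 271 CPM in supplemented 2N. All 6 control-diet Ts65Dn libraries lay below all 6 of control-diet 2N, as did 0.366% of all genes, and Qk fell by 1.14 ± 0.23 on the log2 scale (edgeR adjusted p = 0.0111). Its log2 fold change lay between −1.42 and −0.97 in 15 alternatives, 9 of which called it, and between −1.21 and −0.98 in 12 fits that left out 1 library, 11 of which called it. Without the libraries with Chat under 1 CPM it was −1.10 (adjusted p = 0.548), and without control-diet Ts65Dn 3 it was −1.08 (adjusted p = 0.077). With supplementation in Ts65Dn it was at 0.60 ± 0.21 (adjusted p = 0.248). The other 6 genes of that list, among them Hnrnpa2b1 and Fyn, were called in no comparison.

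Regulators and partners gave no call. Of 10 oligodendrocyte transcription factors, 6 were lower in control-diet Ts65Dn than in control-diet 2N (median −0.12). The 1 with an unadjusted p under 0.05 there, Zfp536, was higher, as were 5.36% of all genes. With supplementation in Ts65Dn 5 of the 10 were higher (0.10). Between the supplemented genotypes 6 were higher (0.27), and between the 2N diets 8 were lower (−0.38). St18 had the smallest p of the 10 in the comparison of the supplemented genotypes, in that of the 2N diets and in the interaction. It had 4.23 to 50.2 CPM in supplemented Ts65Dn, 3.86 to 27.1 CPM in control-diet Ts65Dn, 0 to 5.33 CPM in supplemented 2N and 13.5 to 52.0 CPM in control-diet 2N. Its log2 fold change was 3.10 ± 0.93 for supplemented Ts65Dn against supplemented 2N (adjusted p = 0.234) and −3.72 ± 0.98 for supplemented against control-diet 2N (adjusted p = 0.566). All 4 supplemented 2N libraries lay below all 6 of control-diet 2N, as was so for 0.741% of all genes tested, and they overlapped with both Ts65Dn groups. Of 11 oligodendrocyte precursor genes, 6 were lower in control-diet Ts65Dn than in control-diet 2N (median −0.19), and 5 were higher with supplementation in Ts65Dn (−0.02), led by Bcas1 (adjusted p = 0.269). Of 16 axonal and paranodal partners, 11 were lower in control-diet Ts65Dn, led by Cntn1 (−0.78 ± 0.25, adjusted p = 0.196), and 13 were higher with supplementation in Ts65Dn, led by Cntnap1 (0.55 ± 0.24, adjusted p = 0.414). Of 8 receptors and partners of myelin inhibitors, 5 were higher and 3 lower for trisomy on the control diet (median 0.21). For the diet in Ts65Dn they were split 4 to 4 (−0.49). Lingo1 had the smallest p of the 8 in both of these comparisons, at 1.01 ± 0.35 (adjusted p = 0.21) for trisomy on the control diet and −1.05 ± 0.33 (adjusted p = 0.219) for the diet in Ts65Dn. Peripheral myelin markers summed to at most 56.0 CPM in any library.

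**Figure D5:**
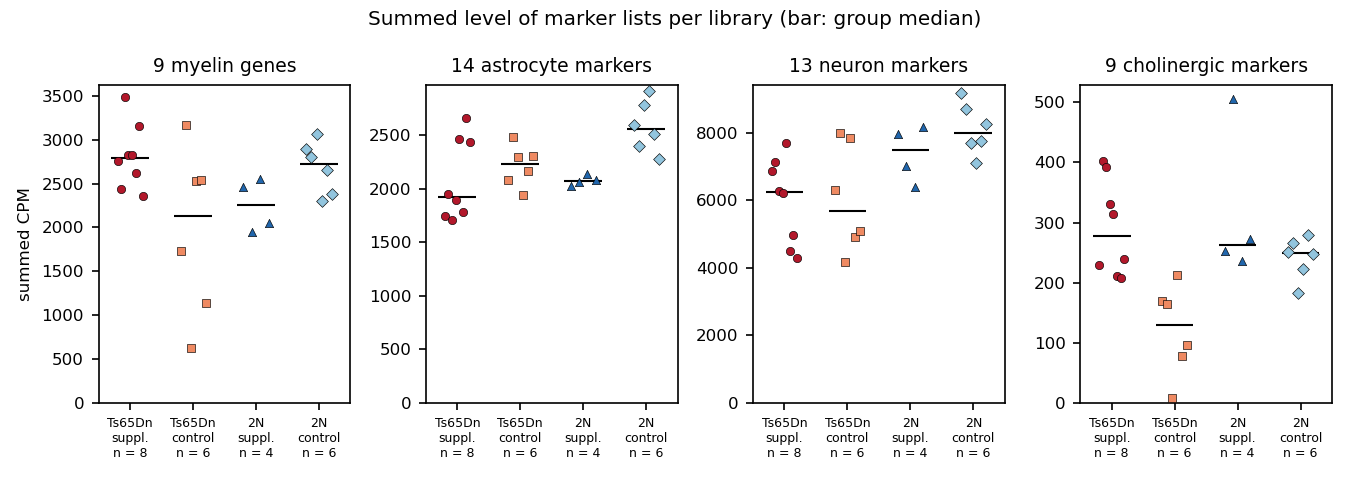
Summed CPM per library of the 9 myelin genes, 14 astrocyte, 13 neuron and 9 cholinergic markers, by group, with group medians as bars. Control-diet Ts65Dn 3 is the lowest library for the myelin genes, the cholinergic markers (7.48 CPM) and the neuron markers (4168 CPM). The astrocyte sums of control-diet Ts65Dn lie between 1942 and 2483 CPM.

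The summed level of the 9 members was 2359 to 3487 CPM in supplemented Ts65Dn, up to 3168 CPM in control-diet Ts65Dn with a median of 2132 CPM, 1953 to 2557 CPM in supplemented 2N and 2302 to 3062 CPM in control-diet 2N. The 14 astrocyte markers summed to 1709 to 2661, 1942 to 2483, 2025 to 2142 and 2280 to 2916 CPM in the same groups, with none of the 14 at 0 throughout any group. In control-diet Ts65Dn against control-diet 2N, the lists did not all go 1 way. Of 14 microglia markers 10 had a higher fitted level (median 0.35), as had the 3 peripheral myelin markers tested (1.33). The 10 vessel markers were split 5 to 5 (0.06). Lower, as all 9 members were, were 13 of 14 astrocyte markers, 9 of 9 cholinergic and 11 of 13 general neuron markers (medians −0.52, −0.89 and −0.41). Nefm, a neurofilament, was the 1 of them called (edgeR −1.29 ± 0.30, adjusted p = 0.0411), and that call held in 3 of 12 fits that left out 1 library, with a log2 fold change of −1.66 to −1.09, and in 7 of 15 other alternatives, with −2.005 to −0.72, the smallest without the libraries with Chat under 1 CPM. With supplementation in Ts65Dn, 9 of 9 cholinergic markers (median 1.5) and 11 of 14 astrocyte markers (0.34) were higher, none of them called. So were 7 of 10 vessel markers (0.41), 7 of 13 general neuron markers (0.15) and 5 of 14 microglia markers (−0.05), again with none called. The 9 cholinergic markers summed to 208 to 402 CPM in supplemented Ts65Dn and 7.48 to 213 CPM in control-diet Ts65Dn. With the astrocyte level as a covariate, the median of the members was −0.98 for trisomy on the control diet and 0.95 for the diet in Ts65Dn, and with the mitochondrial ribosomal share it was −0.57 and 0.67. The part of cholinergic RNA in these values was not tested. Microglia markers stayed between 69.6 and 258 CPM in sum, vessel markers between 135 and 439 CPM, and of the ependyma and choroid plexus list Tmem212 and Folr1 were at 0 in all 24 libraries. In supplemented Ts65Dn against control-diet 2N the neuron marker Syt1, a vesicle calcium sensor, was the 1 list gene called (edgeR −0.75 ± 0.18, adjusted p = 0.0307), a call that held in 3 of 14 fits that left out 1 library, with a log2 fold change of −0.89 to −0.66, and in 10 of 15 other alternatives, with −1.33 to −0.52.

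Over 36 pairs of members, Pearson's r of log2 CPM centred on group means had a median of 0.20 and ran from −0.17 to 0.88 over 24 libraries, and without control-diet Ts65Dn 3 the median was 0.11. Among the 6 tested genes whose pattern was most like the mean of the members, of 7670 genes with a mean log2 CPM of at least 3, were Vps4a (r = 0.86), Tbc1d15 (0.84), Cisd1 (0.84), Eps15 (0.81) and Kcnj16 (0.80). Spearman's rho of these genes ran from 0.55 to 0.79. Without control-diet Ts65Dn 3 and supplemented 2N 1, the libraries farthest from the median, r was 0.48 to 0.73. These libraries share depth and RNA quality as well as biology, and the values are a description.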

How the data were processed

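RNA of laser-captured basal forebrain cholinergic neurons was measured in 24 libraries, made with a stranded low-input total RNA kit and sequenced as single reads, per the labels' protocols. Per the submitters' processing notes, the authors used Trimmomatic 0.39, STAR and RSEM; for STAR and RSEM the version was not given in the sources used here, nor was the strand setting of the counting. Because GRCm39 and mm10 are both named and neither has a stated role, the files' coordinates are not used. The deposited matrix gives RSEM's expected counts without normalization, and its 24 columns equal the deposited files of the single libraries, which also hold the authors' TPM and mean transcript length. Of 55414 identifiers, 52081 matched a GENCODE M21 symbol.

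Expected counts were rounded. Genes passing edgeR's filterByExpr at a minimum count of 10 (19967) were scaled by TMM and tested in 1 fit of the 4 groups, two-sided (edgeR 4.0.16, limma 3.58.1, DESeq2 1.42.0, R 4.3.3). Log2 CPM used a prior count of 2 and TPM a pseudocount of 1. The edgeR fit was also run on simulated counts, with gene shares alike in all libraries apart from the genes set to change. The outcome is not reported here, and that run is no check on these libraries. Replicate numbers follow accession order. The labels give no litter, although the dams were fed the diets, and the p-values measure the spread between these samples.

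The members and lists were chosen with earlier results of these data known. Genes were named from the 9 members, Chat, the 6 genes most like the members, and, of each list and comparison, the called genes or otherwise the gene with the smallest p. Some genes that this rule names are not reported here. Hnrnpa2b1 and Fyn as list members, Tmem212 and Folr1 as markers at 0, and the ratios to Mbp were chosen after their values were seen. Alternatives were other tools, scalings, filters, covariates and sets of libraries. Added after seeing the data were the fits without supplemented Ts65Dn 2 and 5, 2 of the 4 fits within an ID prefix (the first digits of the animal number, whose meaning is not stated), the length tests and the alternatives for Qk, Nefm and Syt1. Start regions come from RefSeq on GRCm38.p6.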

Additional observations from a re-analysis of the deposited data

Results flagged for a closer look

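Of 36 tests for a single far sample (9 genes in 4 groups, Dixon's ratio at the 95% level), 4 pointed to 1 library, where chance alone gives about 1 in 20. Mog was far below the rest of its group in control-diet 2N 5, at 0.134 CPM. Cnp was far below in control-diet Ts65Dn 3, at 16.4 CPM, the library without Chat counts. Cldn11 was far below in supplemented Ts65Dn 1, at 1.11 CPM, and in supplemented 2N 1, at 2.08 CPM.

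In log2 CPM, Mag was the 1 member with every supplemented library beyond its control-diet mean, in opposite directions in the 2 genotypes. The share of all genes tested that show this pattern was not counted, so it is not known to be particular to Mag. Every supplemented Ts65Dn library lay above the control-diet Ts65Dn mean, and every supplemented 2N library lay below the control-diet 2N mean. The test of that difference, the interaction term of the edgeR fit, gave a log2 value of 1.71 ± 0.53 with an adjusted p of 0.251. Over its alternatives the value stayed between 1.37 and 2.44, with adjusted p from 0.0605 to 0.758, and it was not called in any of them.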

How the results depend on the processing

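No paired analysis was possible because the replicate numbers only follow accession order. Of 519 recomputed counts and medians of the members, 512 stayed within the limits set for them. For a median the limit was a change of 0.65, the SD of the member score within groups. That is more than the medians of −0.59, 0.26, −0.46 and 0.15 reported above. Such a median could reach 0 or change sign within the limit, so the 512 do not show that it is stable. Of 1557 recomputed member values 60 changed sign, none of them called, and the causes were not tested. The count of members called higher was 1 with DESeq2 in supplemented Ts65Dn against supplemented 2N and 1 in supplemented against control-diet Ts65Dn. With no filter on low counts it was 2 in the diet comparison of Ts65Dn and 1 in the interaction. It was 1 for supplemented Ts65Dn against supplemented 2N with only the compared groups, and 1 without the libraries with Chat under 1 CPM. On log2(TPM + 1) the median in supplemented Ts65Dn against control-diet 2N was −0.61, with the median of all genes at −0.46.

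In that comparison Mbp, at 0.00 in the fit reported, was 0.0514 with DESeq2, 0.0515 with its size factors, 0.0315 on totals without mitochondrial ribosomal RNA, Lars2 and Mir6236, 0.0022 at a minimum count of 30, 0.0228 with no filter, 0.0337 with only the compared groups, 0.0376 without supplemented Ts65Dn 2 and 5 and 0.0056 without the libraries with Chat under 1 CPM. On log2(TPM + 1) it gave −0.46 for Cnp, −0.12 for Mag, −0.61 for Mal and Mobp and −0.27 for Mog, and for supplemented Ts65Dn against supplemented 2N −0.34 for Cldn11, −0.63 for Cnp and −0.19 for Mobp. With ID prefix as a factor, Cldn11 was −0.10 between the supplemented genotypes, Cnp −0.43 between the 2N diets and −0.12 in supplemented Ts65Dn against control-diet 2N, and Ermn 0.011 between the control-diet genotypes. With the astrocyte level, Cnp was −0.027 between the 2N diets, Ermn 0.35 in the interaction, and Mal −0.21, Mobp −0.0036 and Mog −0.13 in supplemented Ts65Dn against control-diet 2N. With the mitochondrial share, Cldn11 was −0.12, Ermn 0.11 and Opalin 1.27 between the supplemented genotypes, Ermn 0.026 between the Ts65Dn diets and 0.40 in the interaction, and Opalin 0.12 in supplemented Ts65Dn against control-diet 2N. Within an ID prefix, Opalin was 0.11 (prefix 15) and −1.54 (prefix 16, Ts65Dn diets), and Mog 0.21 (prefix 17). Without control-diet Ts65Dn 3 and supplemented Ts65Dn 7, Cnp was 0.036 and Ermn 0.20 between the control-diet genotypes; without the libraries with Chat under 1 CPM they were 0.29 and 0.47, Ermn was 0.10 between the supplemented genotypes and Cnp −0.056 between the 2N diets. Without supplemented Ts65Dn 2 and 5, Opalin was −0.96 between the Ts65Dn diets and −0.28 in the interaction.

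Mbp length without those 2 libraries was −0.81, −0.67 and −0.69 against supplemented 2N, control-diet Ts65Dn and control-diet 2N and −0.79 in the interaction, all called. The 2 libraries were left out with their Mbp values known, so these calls are no independent support. The limma fit of all libraries called none of them, and gave −0.64 ± 0.18 in the interaction (adjusted p = 0.745). With at least 30 counts in every library the Mbp length difference was −0.54 against control-diet 2N, called. Between the control-diet genotypes it was 0.029 without control-diet Ts65Dn 3 and supplemented Ts65Dn 7. Leaving out 1 library at a time, it ran from −0.74 to −0.61, −0.59 to −0.47 and −0.62 to −0.49 in the first 3, and −0.071 to 0.029 between the control-diet genotypes. Fold changes ran from −0.14 to 0.57 for Cldn11 between the supplemented genotypes, −0.032 to 1.5 for Opalin between the Ts65Dn diets, −0.076 to 0.049 for Mbp in supplemented Ts65Dn against control-diet 2N, −0.35 to 0.036 for Cnp and −0.19 to 0.20 for Ermn between the control-diet genotypes, and −0.10 to 0.18 for Cnp and −0.57 to 0.044 for Ermn between the 2N diets.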
